A study of Mus musculus with 77 samples.

Results

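The ETO family of transcriptional corepressors was described in mouse pancreatic ductal organoids expressing Ngn3. Its members, Cbfa2t3, Runx1t1 and Cbfa2t2, were taken by name and are 3 of the 46078 genes in the count table. Cbfa2t3 was chosen by its expression values in these libraries, since the study plots it as strongly higher in cells with 6S-A Ngn3 than in those with the WT form. Its levels and fold changes are therefore given as a description, with no test. Cbfa2t3 and Runx1t1 both belong to lists of strongly raised genes that the study drew from these same samples. Organoids of C57BL/6 ductal cells had been infected with GFP vectors carrying no Ngn3 (GFP only), the wild-type protein (WT Ngn3) or 6S-A Ngn3, a form whose serine-proline sites are changed to alanine-proline. All 3 kinds of cell were sorted after 2 days of induction. WT Ngn3 and 6S-A Ngn3 cells were also sorted after 8 days, together with cells labelled as no-color controls from organoids of either kind (no-color WT and no-color 6S-A). Each group held 3 biological replicates, and each library was a pool of 50 sorted cells. All replicates were of passage 2 except replicate 3 at 8 days, which was of passage 5 in all 4 groups. The vectors force Ngn3 into cultured duct cells, so the groups model induced rather than native Ngn3 expression.

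The ETO proteins do not bind DNA by themselves. They are brought to genes by DNA-binding proteins such as E proteins, zinc finger factors and the Tal1 complex, and they recruit corepressor complexes with histone deacetylases to lower transcription there. Runx1t1, also called ETO, is best known as the fusion partner of Runx1 in acute myeloid leukemia, Cbfa2t3 (ETO2) is a regulator of blood progenitors, and Cbfa2t2 (MTGR1) is expressed in many tissues, including the gut epithelium. Ngn3 is a basic helix-loop-helix activator that pairs with E proteins on E boxes, sites of the form CANNTG.

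On GRCm38, Cbfa2t3 (ENSMUSG00000006362) lies on the minus strand at chr8:122625141-122699109, Runx1t1 (ENSMUSG00000006586) on the plus strand at chr4:13743436-13893649, and Cbfa2t2 (ENSMUSG00000038533) on the plus strand at chr2:154436481-154539356. Promoter windows of 300 bases around a start, from RefSeq on GRCm38.p6, were available for Cbfa2t3 and Cbfa2t2, not for Runx1t1. They are shown because both genes were higher with Ngn3, and E boxes (CANNTG, both strands) are in capitals:
Cbfa2t3, upstream start, chr8:122699060-122699359, minus strand: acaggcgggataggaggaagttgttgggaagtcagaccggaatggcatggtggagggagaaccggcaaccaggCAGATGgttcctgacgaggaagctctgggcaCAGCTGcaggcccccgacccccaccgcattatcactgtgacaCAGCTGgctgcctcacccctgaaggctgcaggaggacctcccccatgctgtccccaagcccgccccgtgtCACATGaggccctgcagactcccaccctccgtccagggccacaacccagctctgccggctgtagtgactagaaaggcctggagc
Cbfa2t3, downstream start, chr8:122678126-122678425, minus strand: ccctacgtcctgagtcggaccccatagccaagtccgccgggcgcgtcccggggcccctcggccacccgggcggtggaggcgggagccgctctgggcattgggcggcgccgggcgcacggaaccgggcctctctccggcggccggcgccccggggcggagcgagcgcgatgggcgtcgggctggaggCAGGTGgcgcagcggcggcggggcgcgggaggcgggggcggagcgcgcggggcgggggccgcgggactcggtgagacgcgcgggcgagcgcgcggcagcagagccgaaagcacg
Cbfa2t2, chr2:154436234-154436533, plus strand: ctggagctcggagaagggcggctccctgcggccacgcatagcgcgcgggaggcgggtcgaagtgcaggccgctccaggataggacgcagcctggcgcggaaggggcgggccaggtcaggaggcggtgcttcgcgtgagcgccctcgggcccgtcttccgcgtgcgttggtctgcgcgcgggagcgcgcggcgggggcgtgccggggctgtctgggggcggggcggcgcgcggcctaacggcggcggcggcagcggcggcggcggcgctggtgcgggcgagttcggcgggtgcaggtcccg

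The upstream Cbfa2t3 window held 4 E boxes, of which CAGCTG occurred 2 times and CAGATG 1 time, and the downstream window held 1. The Cbfa2t2 window held 0. Of 32851 promoter windows of this length, 72.31% held at least 1 CANNTG, 17.15% held CAGATG or its complement CATCTG, and 16.3% held CAGCTG, both of which are cases of CANNTG. These are matches of letters, and binding was not measured in these libraries.

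Reads on genes per replicate, summed over its pools, numbered 17757303 to 26627347 at 2 days and 2397470 to 17919627 at 8 days. Levels are counts per 1000000 reads (CPM) after TMM scaling, and 3 reads in a summed replicate were taken as the detection limit. Neurog3 itself, the transgene, had 1 or 2 reads per GFP only replicate and 133 ± 62.9 CPM (WT) or 138 ± 52.5 CPM (6S-A) in Ngn3 cells at 2 days (SD, n = 3). The Ngn3 cells at 8 days held 22.5 ± 20.99 CPM (WT) and 12.7 ± 2.79 CPM (6S-A), against at most 0.992 CPM in any no-color replicate. All 6 ductal markers checked, among them Krt19, Krt7, Epcam, Sox9 and Cdh1, were present in every group. At 2 days their summed level was 4558 to 5325 CPM with GFP only, 4099 to 4423 CPM with WT Ngn3 and 3606 to 3974 CPM with 6S-A Ngn3. The means of 6 summed endocrine markers were 1.26, 489 and 587 CPM. The summed level of 6 hematopoietic markers was at most 9.30 CPM in any replicate, and 4 of them, Ptprc, Laptm5, Tyrobp and Spi1, had means of at most 0.311 CPM in any group. The other two were higher in some groups: Csf1r stood at 4.02 CPM with GFP only, 3.39 and 3.57 CPM in no-color cells and 0.487 to 2.06 CPM in Ngn3 cells, and Cd52 at 0.278 CPM with GFP only, 1.04 CPM with WT Ngn3 and 1.95 CPM with 6S-A Ngn3 at 2 days. The part of these markers in the Cbfa2t3 levels was not tested. In pools of cells, fewer cells with a transcript and less of it per cell cannot be told apart.

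At 2 days, all 3 members were higher with Ngn3, from very different starting points. Cbfa2t3 and Runx1t1 were close to absent in GFP only cells, while Cbfa2t2 was already well expressed. Among 23844 genes tested, 6.56% were called higher with WT Ngn3 than with GFP only and 9.43% with 6S-A Ngn3. In either direction, 11.8% (2810 genes, or 4291 with a replicate block) and 18.1% were called. Runx1t1 and Cbfa2t2 were called higher in both comparisons. Since Runx1t1 is on the study's lists of raised genes from these samples, its calls against controls repeat that choice and are no separate support.

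Cbfa2t3 stood at 0.653, 1.03 and 1.06 CPM in the 3 GFP only replicates, from 18, 27 and 23 reads. With WT Ngn3 it stood at 67.5, 87.4 and 156 CPM, and with 6S-A Ngn3 at 125, 125 and 219 CPM. Every Ngn3 replicate lay far above every GFP only replicate. The fitted log2 fold change over GFP only was 6.84 (SE 0.45) for WT and 7.42 (SE 0.46) for 6S-A. Between both Ngn3 forms it was 0.58 (SE 0.32), and the groups overlapped because WT replicate 3 exceeded 6S-A replicates 1 and 2. The difference ran from 0.26 without 6S-A replicate 3 to 1.01 without WT replicate 3. Within a replicate number, 6S-A was higher than WT each time, by 1.85-, 1.44- and 1.40-fold. With a replicate block, which pairs the numbers, the fitted log2 difference was 0.62 (SE 0.11).

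Runx1t1 had 1, 3 and 0 reads in the GFP only replicates, at or under the detection limit. With WT Ngn3 it stood at 27.4, 12.03 and 55.3 CPM, and with 6S-A Ngn3 at 51.0, 32.9 and 45.3 CPM. With every GFP only replicate set to the limit of 3 reads, it was 262-fold higher with WT Ngn3 and 357-fold higher with 6S-A Ngn3. Adjusted p was 0.000116 and 4.53e-05 in edgeR's quasi-likelihood test. Without WT replicate 3 the first fold was 163. From counting error on the summed reads, the lower 95% limits were 232 and 320, so 262 and 357 are not strict lower limits. The Ngn3 forms overlapped fully, since the WT replicates included both the lowest and the highest value. Their log2 difference was 0.44 (SE 0.46, adjusted p = 1 in edgeR), and 6S-A was higher in 2 of 3 number-matched pairs. Leaving out a replicate, the difference ran from 0.05 without WT replicate 2 to 1.12 without WT replicate 3, with adjusted p of 0.380 or more (edgeR). With a replicate block it was 0.65 (SE 0.33, adjusted p = 0.651, edgeR).

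Cbfa2t2 stood at 62.0, 54.3 and 48.5 CPM with GFP only, at 115, 106 and 134 CPM with WT Ngn3 and at 190, 148 and 164 CPM with 6S-A Ngn3. The 3 groups did not overlap, in that order. Every replicate with WT Ngn3 was above every GFP only replicate in 13.2% of genes, and every 6S-A Ngn3 replicate in 16.9%. The log2 fold change over GFP only was 1.11 (SE 0.14, adjusted p = 0.000105, edgeR) for WT Ngn3 and 1.598 (SE 0.139, adjusted p = 2.74e-06, edgeR) for 6S-A Ngn3. Between 6S-A and WT it was 0.49 (SE 0.14) with an unadjusted p of 0.00293 in edgeR and an adjusted p of 0.473, so the difference did not pass across all genes. With a replicate block it was 0.48 (SE 0.10, adjusted p = 0.0557, edgeR) and just missed the threshold. For comparison, 0.0126% of genes (3, or 147 with a replicate block) were called between both forms, and 5.42% of genes had every 6S-A replicate above every WT replicate.

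**Figure D1:**
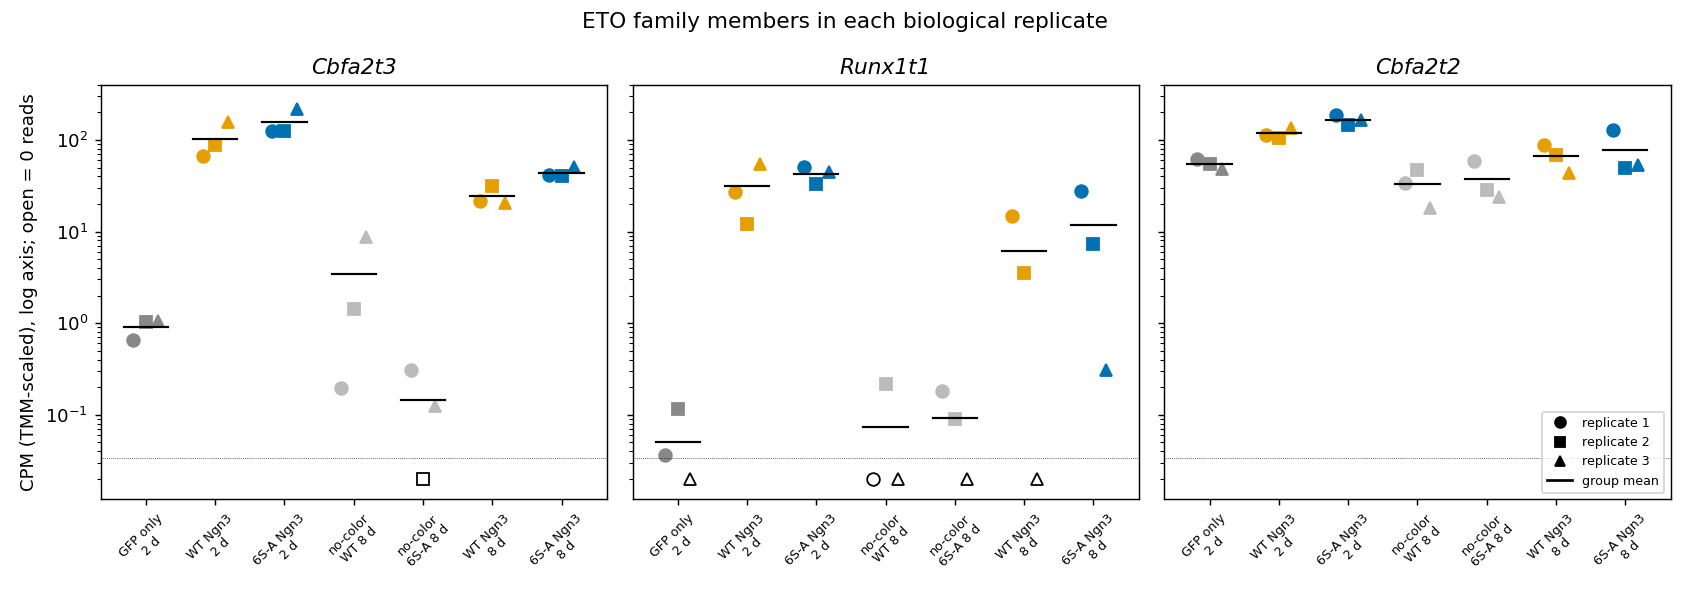
Level of each member in CPM (log axis) in the 3 biological replicates of the 7 groups. Black lines are group means and open symbols mark replicates with 0 reads. In GFP only cells Cbfa2t3 and Runx1t1 lie near or under 1.06 CPM, whereas Cbfa2t2 lies between 48.5 and 62.0 CPM.

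Because the members differ in exon length (8373 bases for Cbfa2t3, 7959 for Runx1t1 and 8650 for Cbfa2t2), levels between them were compared per kb of exon. In GFP only cells the family was nearly all Cbfa2t2, which made up 98.2% ± 0.600 of the summed level (SD, n = 3). With WT Ngn3 at 2 days, Cbfa2t2 made up 47.3% ± 8.44, Cbfa2t3 40.4% ± 6.86 and Runx1t1 12.3% ± 5.50. With 6S-A Ngn3 the shares were 45.1% ± 6.93, 42.5% ± 8.54 and 12.5% ± 2.04, each within the spread of the WT shares. The summed level was 6.47 ± 0.759 CPM per kb with GFP only, 30.03 ± 9.62 with the WT protein and 43.4 ± 7.27 with 6S-A Ngn3. The highest WT replicate (41.1) lay above the lowest 6S-A replicate (36.2).

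**Figure D2:**
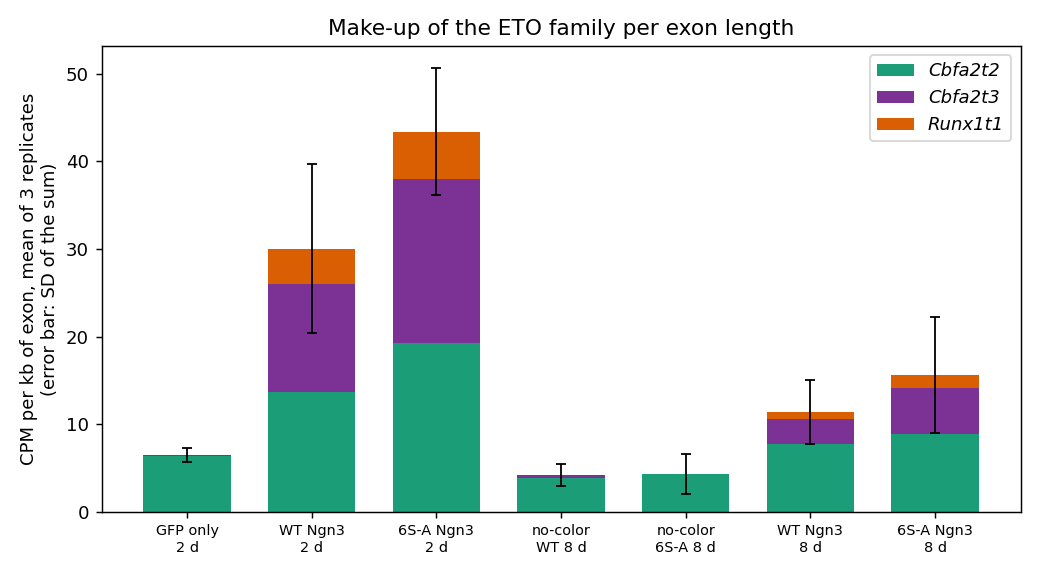
Mean level of each member per kb of exon (CPM per kb, stacked bars) in the 7 groups, with the SD of the summed level over 3 replicates. The bar is almost entirely Cbfa2t2 with GFP only (98.2%) and in no-color 6S-A cells (99.4%), holds 87.5% ± 18.1 Cbfa2t2 in no-color WT cells, where 1 replicate had 66.7%, and is shared with Cbfa2t3 and Runx1t1 in the Ngn3 groups.

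At 2 days, the pools of Ngn3 cells differed most for Runx1t1 and least for Cbfa2t2. Over the 18 WT Ngn3 pools at 2 days, Cbfa2t2 ran from 81.5 to 196 CPM (median 120.0), Cbfa2t3 from 42.9 to 275 CPM (median 106) and Runx1t1 from 1.43 to 98.4 CPM (median 31.0). The ratio of the highest to the lowest pool was therefore 2.40 for Cbfa2t2, 6.41 for Cbfa2t3 and 68.6 for Runx1t1. The corresponding coefficients of variation were 22.6%, 55.7% and 84.4%, which include the differences between the 3 replicates. With 6S-A Ngn3 the ratios were 2.25, 4.38 and 34.5.

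Runx1t1 varied most among pools of the same replicate. In WT replicate 1 it ran from 3.92 to 43.2 CPM, in WT replicate 2 from 1.43 to 26.5 CPM, and in 6S-A replicate 1 from 8.81 to 125 CPM. Every Ngn3 pool at 2 days nonetheless held Runx1t1 reads, whereas 15 of the 18 GFP only pools held 0. Technical repeats 2 and 3 of replicates 2 and 3 had nearly the same counts over all genes and gave matching Runx1t1 levels, for example 83.1 and 83.4 CPM in 6S-A replicate 3. Each such pair may be 1 pool sequenced again, which would leave 16 pools per group. They were summed within their replicate like the others, so n stayed at 3. Counted as 1 pool each, the ratios of the highest to the lowest WT Ngn3 pool were 2.40 for Cbfa2t2, 6.20 for Cbfa2t3 and 68.6 for Runx1t1, and 13 of 16 GFP only pools held no Runx1t1 read.

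The 3 members did not rise and fall together from pool to pool in any steady way. With the replicate means removed, Pearson's r of log2 CPM between Cbfa2t3 and Runx1t1 was -0.06 over the 18 WT Ngn3 pools and 0.06 over the 18 6S-A Ngn3 pools. Between Cbfa2t3 and Cbfa2t2 it was 0.07 and 0.61, and between Runx1t1 and Neurog3 it was 0.06 and 0.35. Over 16 pools, with the near-identical repeats averaged, r between Cbfa2t3 and Cbfa2t2 was 0.20 and 0.67. These are descriptions over pools that share 3 organoid cultures.

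**Figure D3:**
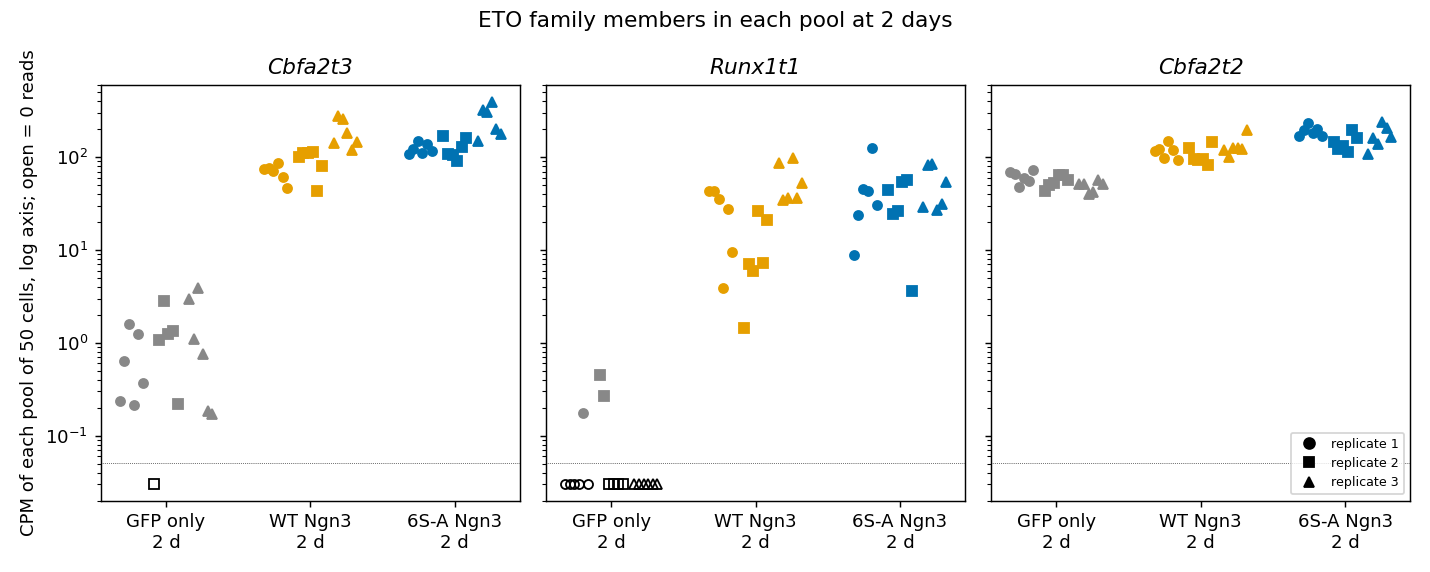
CPM (log axis) of each member in each pool of 50 cells at 2 days, 18 pools per group, with symbols for the biological replicate and open symbols for 0 reads. The Ngn3 pools are tight for Cbfa2t2 and spread widely for Runx1t1, from 1.43 to 98.4 CPM with WT Ngn3.

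At 8 days Cbfa2t3 was still high in Ngn3 cells of every replicate, at 21.8, 31.2 and 20.5 CPM with WT Ngn3 and 41.3, 40.2 and 50.2 CPM with 6S-A Ngn3. The groups did not overlap in these values, which belong to the contrast that chose the gene; 2.96% of the 19696 genes tested were likewise higher in every 6S-A replicate. The fitted log2 difference was 0.83 (SE 0.80), a ratio of mean CPM of 1.79. At a threshold of 0.05 on the adjusted p, 0% of genes were called in this comparison by edgeR or by DESeq2, with 415 genes under an unadjusted p of 0.05 in edgeR.

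The separation at 8 days rested on which libraries were retained. WT Ngn3 replicate 2 had a second pool with 849278 reads on genes, under the study's limit of 1000000, and it was left out, the only library that these limits removed from the deposited counts, where the study states that more were left out. That pool held 106 Cbfa2t3 reads, an unscaled CPM of 125, against 15.6 to 32.02 in the 4 retained WT pools and 36.1 to 60.7 in the 6S-A pools. With it, WT replicate 2 stood at an unscaled CPM of 52.3 in place of 31.96, above all 3 6S-A replicates (40.3 to 47.6), and the fitted log2 difference between 6S-A and WT was 0.50 (SE 0.81).

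In the no-color controls, Cbfa2t3 stood at 0.196, 1.42 and 8.68 CPM in no-color WT cells (3, 13 and 15 reads) and at 0.306, 0 and 0.123 CPM in no-color 6S-A cells (5, 0 and 1 reads). The no-color WT cells were thus the higher controls in replicates 2 and 3, and they differed widely among themselves. The summed level of 6 acinar markers also differed between these controls, at 14.9, 11.4 and 20.8 CPM in the no-color WT replicates and 8.62, 7.48 and 7.04 CPM in the no-color 6S-A replicates, with no overlap and with its highest value in the replicate where Cbfa2t3 was highest. The acinar genes Cpa1 and Ptf1a had 0 reads in both groups, and the part of the acinar markers in the Cbfa2t3 levels was not tested. The fitted log2 difference, no-color 6S-A against no-color WT, was -3.97 (SE 1.11). It ran from -5.29 (SE 1.501) without no-color 6S-A replicate 1 to -2.18 (SE 0.89) without no-color WT replicate 3.

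These controls set how far apart both Ngn3 forms appear when each is measured against its own no-color cells. With WT Ngn3, the mean Cbfa2t3 level was 7.14-fold that of its own no-color cells, or 30.3-fold without no-color WT replicate 3. With 6S-A Ngn3, 2 of the 3 own no-color replicates were under the limit of 3 reads, so that only a rough bound can be given. With these 2 set to the limit and replicate 1 at its own value, the control mean was 0.316 CPM and the level 139-fold higher. From counting error on the summed reads, the lower 95% limit was 116. The fitted log2 values were 3.19 (SE 0.93) for WT Ngn3 and 7.99 (SE 1.14) for 6S-A Ngn3. The latter rests on 6 control reads and is no measure of size beyond these bounds. Against the mean of both no-color groups the fit gave 5.17 (SE 0.77) and 6.00 (SE 0.78), and all of these values share the same 12 replicates.

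**Figure D4:**
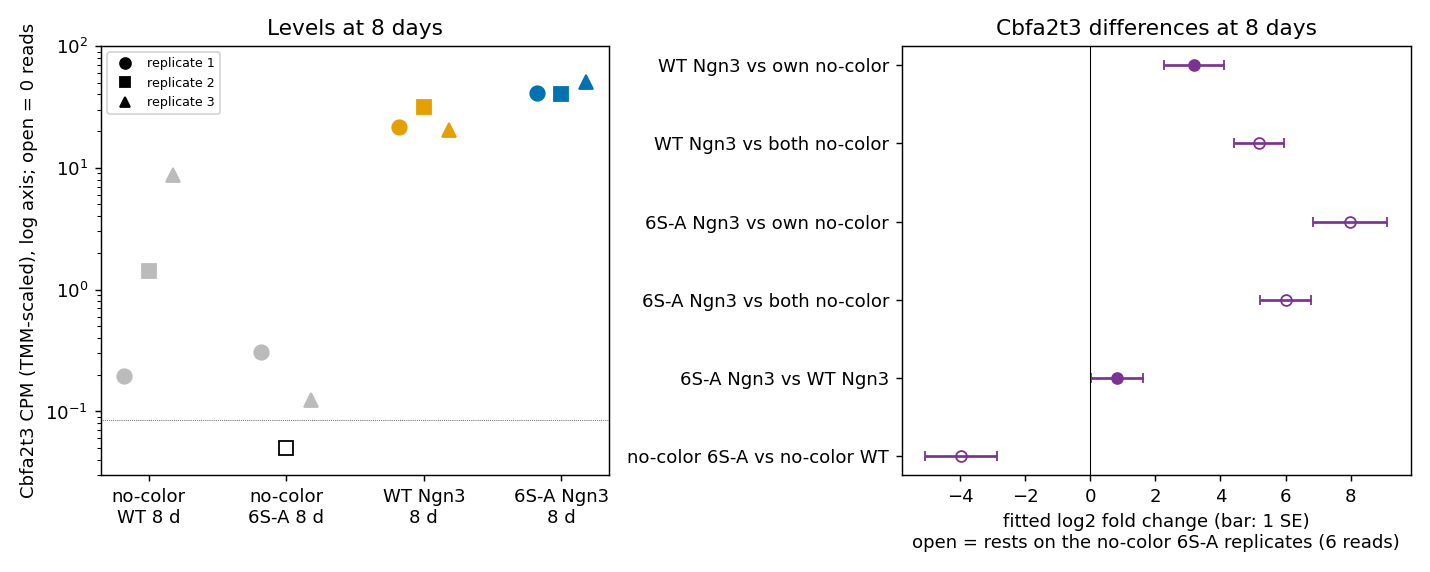
Left, Cbfa2t3 CPM (log axis) in the 3 replicates of each 8-day group, with an open symbol for 0 reads. Right, fitted log2 fold changes with bars of 1 SE: open symbols mark fits that rest on the 6 no-color 6S-A reads, among them the own-control value of 6S-A (7.99), beside 3.19 for WT. The direct 6S-A against WT value is 0.83, and the no-color groups differ by -3.97.

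No-color WT replicate 3 stood apart as a library. It was the only pool of its replicate, held 2397470 reads on genes, the fewest of the 21 replicates, and had 29.1% of its reads in its 10 most abundant genes. Without TMM scaling its Cbfa2t3 level was 6.26 CPM. It held 0 Neurog3 reads and its 6 endocrine markers (Neurod1, Insm1, Pax4, Pax6, Chga and Chgb) summed to 1.74 CPM, within the range of the other no-color replicates. The part of this depth in its Cbfa2t3 reads was not tested.

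Runx1t1 at 8 days differed more between replicates than between Ngn3 forms. It stood at 14.9, 3.54 and 0 CPM with WT Ngn3 and at 27.5, 7.29 and 0.309 CPM with 6S-A Ngn3, from 2 reads in the last. Each no-color replicate held 3 reads or fewer. Against the detection limit the mean was at least 8.17-fold higher with WT Ngn3 and at least 42.6-fold higher with 6S-A Ngn3. Both bounds rested on replicate 1 of the Ngn3 cells, without which they were 2.35 and 13.8, and in replicate 3 neither form exceeded the limit. The WT bound was also set by the shallow no-color WT replicate 3, without which it was 23.4. Of all genes tested, 0.741% were called higher with WT Ngn3 than in no-color cells and 1.37% with 6S-A Ngn3. In either direction, 0.914% (180 genes, or 472 with a replicate block) and 1.71% (337 genes, or 704) were called.

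In the same test, edgeR's quasi-likelihood, Runx1t1 was called with 6S-A Ngn3 (adjusted p = 0.0171) and just missed the threshold with WT Ngn3 (adjusted p = 0.0567, and 0.00368 with a replicate block). The 6S-A call was lost without any of 6 of the 9 replicates in the comparison in turn, with adjusted p from 0.0514 to 0.125 in edgeR, the latter without 6S-A replicate 1, and it was lost against the own no-color control (0.142). With passage 2 libraries alone both comparisons passed, at 0.0172 for WT and 0.00684 for 6S-A. The log2 difference between 6S-A and WT was 0.90 (SE 1.37, adjusted p = 1, edgeR), and it ran from -0.72 without 6S-A replicate 1 to 2.77 without WT replicate 1.

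Cbfa2t2 at 8 days stood at 87.4, 68.9 and 43.4 CPM with WT Ngn3, at 129, 49.3 and 53.4 CPM with 6S-A Ngn3, at 34.2, 46.8 and 17.9 CPM in no-color WT cells and at 59.6, 28.5 and 23.7 CPM in no-color 6S-A cells. Each Ngn3 replicate lay above the same-numbered no-color replicate, by 1.47- to 2.56-fold, while the groups overlapped. The log2 fold change over no-color cells was 0.93 (SE 0.41, adjusted p = 0.425, edgeR) for WT Ngn3 and 1.14 (SE 0.40, adjusted p = 0.213, edgeR) for 6S-A Ngn3. The latter passed with a replicate block (adjusted p = 0.0406, edgeR) and fell to 0.53 (SE 0.42, adjusted p = 0.702, edgeR) without 6S-A replicate 1. Between 6S-A and WT the value was 0.21 (SE 0.48, adjusted p = 1, edgeR), and it turned to -0.40 without 6S-A replicate 1.

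Replicate 3, of passage 5, separated the members from one another. Its 6 endocrine markers summed to 17.5 CPM with the WT protein and 56.8 CPM with 6S-A Ngn3, against 1036 to 1664 CPM and 914 to 1817 CPM in replicates 1 and 2. Runx1t1 was at or under the detection limit in replicate 3 of both forms. Cbfa2t3, at 20.5 and 50.2 CPM, stood near its values in replicates 1 and 2. Neurog3 stood at 6.90, 46.4 and 14.3 CPM in the WT replicates and at 9.87, 12.8 and 15.4 CPM in the 6S-A replicates, so that replicate 3 was between the others with WT and the highest with 6S-A Ngn3. Passage and replicate number cannot be told apart, and with 1 such replicate per group this is a description.

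**Figure D5:**
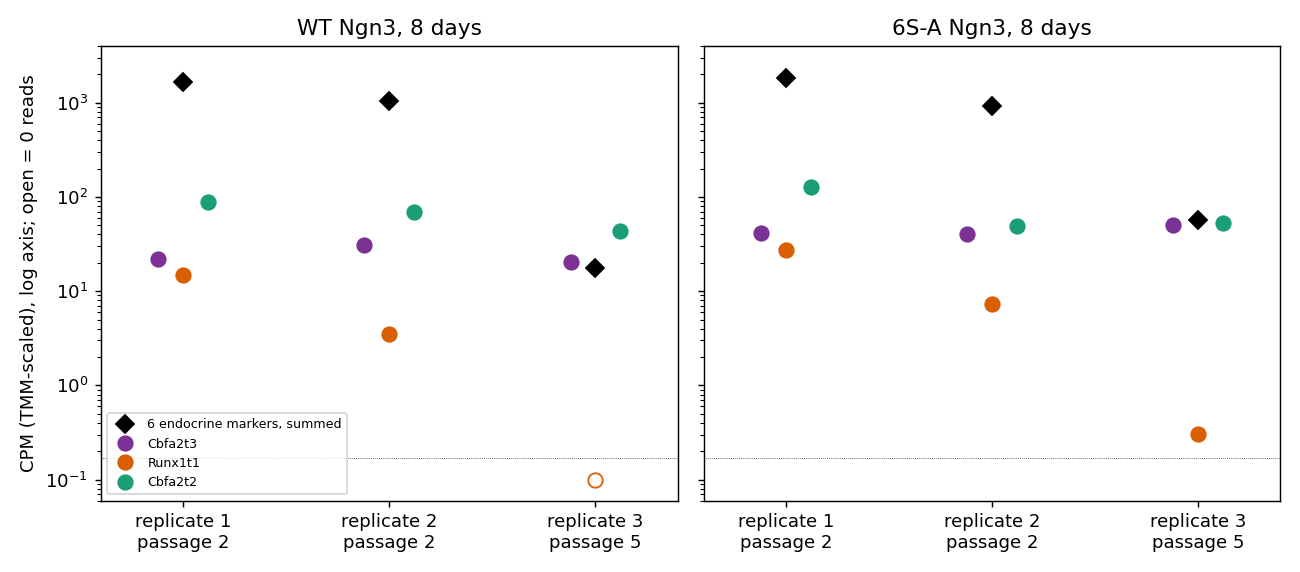
CPM (log axis) of the 3 members and the summed CPM of 6 endocrine markers in each 8-day Ngn3 replicate, with the passage given below, and an open symbol for 0 reads. In replicate 3 the endocrine markers (17.5 and 56.8 CPM) and Runx1t1 (0 and 0.309 CPM) are low while Cbfa2t3 (20.5 and 50.2 CPM) is not.

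Between 2 and 8 days, the mean level of all 3 members was lower at the later time with both Ngn3 forms. The replicates of both times did not overlap for Cbfa2t3 or Cbfa2t2 with either form, or for Runx1t1 with 6S-A Ngn3, and they overlapped for Runx1t1 with WT Ngn3. Of all genes, 13.7% lay lower in every replicate at 8 days than in every one at 2 days with the WT protein, against 13.8% with 6S-A Ngn3. For Cbfa2t3 the log2 difference, 8 against 2 days, was -2.09 (SE 0.60) with the WT protein and -1.83 (SE 0.59) with 6S-A Ngn3, as a description. For Runx1t1 it was -2.29 (SE 1.05, adjusted p = 0.555, edgeR) and -1.86 (SE 1.02, adjusted p = 0.481, edgeR). Leaving out a replicate, these ran from -4.32 to -1.61 and from -3.47 to -1.30, the lowest of each without replicate 1 of 8 days, and the ratio of mean CPM, 2 over 8 days, then went from 5.13 to 17.8 with the WT protein and from 3.68 to 11.3 with 6S-A Ngn3. For Cbfa2t2 it was -0.83 (SE 0.39, adjusted p = 0.564, edgeR) and -1.11 (SE 0.39, adjusted p = 0.222, edgeR), the latter from -1.70 without 6S-A replicate 1 of 8 days to -0.85 without replicate 2. None of these passed with all replicates in the main edgeR fit. There, 0.168% of 19589 genes were called with the WT protein and 0.562% with 6S-A Ngn3. Without a filter on low counts, Runx1t1 passed with both forms and Cbfa2t2 with 6S-A Ngn3.

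The time points had different controls, so day and kind of control cannot be told apart. Cbfa2t2 in the controls was likewise lower at 8 than at 2 days, by a log2 value of -0.63 (SE 0.33, adjusted p = 0.380, edgeR), a comparison in which 1.35% of genes were called. Neurog3 was 5.91-fold lower in mean CPM at 8 days with WT Ngn3 and 10.9-fold lower with 6S-A Ngn3, beside 4.23 and 3.56 for Cbfa2t3. The WT ratio of Neurog3 ran from 4.31 without replicate 1 of 2 days to 12.5 without replicate 2 of 8 days, and that of Cbfa2t3 from 3.16 to 4.97 leaving out a replicate. The change of the 6S-A against WT difference between the times was -0.28 (SE 0.54) for Cbfa2t2 and 0.43 (SE 1.42) for Runx1t1 (adjusted p = 1.00 for both, edgeR), with 0% of genes called, 445 genes under an unadjusted p of 0.05 and 4 called by DESeq2. It was 0.26 (SE 0.81) for Cbfa2t3, as a description, and -0.08 (SE 0.85) when the small WT library was kept.

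Ordered by mean CPM, Cbfa2t3 ran from no-color 6S-A (0.143) and GFP only (0.915) through no-color WT (3.43), WT Ngn3 at 8 days (24.5) and 6S-A Ngn3 at 8 days (43.9) to WT Ngn3 (104) and 6S-A Ngn3 at 2 days (156). GFP only and no-color WT overlapped in this order, as did both forms at 2 days. Runx1t1 ran from the controls, all at or under the detection limit, through WT (6.15) and 6S-A at 8 days (11.7) to WT (31.6) and 6S-A at 2 days (43.1), and each group overlapped the next. Cbfa2t2 ran from no-color WT (33.0), no-color 6S-A (37.3) and GFP only (55.0) to WT (66.6) and 6S-A at 8 days (77.2) and then to WT (118) and 6S-A at 2 days (167), and each group overlapped the next except the last pair.

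Of 31 genes listed as partners of the family, 27 were tested at 2 days, and 18.5% of these were called with the WT protein and 25.9% with 6S-A Ngn3, against 11.8% and 18.1% of all genes. Of 6 genes of the NCoR and SMRT complex, 1 was called higher with WT Ngn3, and 1 higher and 1 lower with 6S-A Ngn3. The list medians were 0.11 and 0.06. The gene called lower was Tbl1xr1, a subunit of the NCoR corepressor complex, at -0.84 (SE 0.16) with 6S-A Ngn3. It stood at -0.46 (SE 0.16, adjusted p = 0.0837, edgeR) with WT. Of 4 class I deacetylase and Sin3 genes, only Sin3b, a corepressor scaffold, was called, with 6S-A Ngn3 at 0.61 (SE 0.11); their medians were -0.04 and 0.02, beside 0.01 and 0.02 over all genes.

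Among the DNA-binding partners, Tcf4 was called higher of the 3 E proteins, at 0.88 (SE 0.16) with WT and 0.94 (SE 0.16) with 6S-A Ngn3 (medians of the list 0.30 and 0.24). Ldb1, the cofactor that bridges Tal1 complexes, was called higher at 0.79 (SE 0.18) and 0.97 (SE 0.18), while the blood factors of that list, Tal1, Lyl1, Lmo2, Gata1 and Gata2, stayed under 0.599 CPM in every group mean, and Tal1 and Gata1 were not tested. The 4 tested genes of this list had medians of 0.45 and 0.43. Of 8 zinc finger and other partners, 6 were tested and Zbtb16 was called higher, from 0.0154 CPM with GFP only to 0.552 and 0.635 CPM, all very low levels (list medians -0.07 and 0.19). Runx2 was called lower of the 4 Runx genes, at -0.65 (SE 0.17) and -1.23 (SE 0.18), with list medians of -0.27 and -0.43.

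None of the 6 lists had a called member between 6S-A and WT Ngn3 at 2 days or at 8 days, or between Ngn3 and no-color cells at 8 days, in edgeR. With 6S-A Ngn3, Ldb1 (-1.60, SE 0.32) was called lower at 8 than at 2 days. Tcf3, which falls outside the rule for named genes and was picked after its value was seen, was called lower too (-1.45). Tcf3 was also called lower in the controls at 8 days (-1.11).

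Patterns over the 21 replicates were compared with those of 19588 other genes by Pearson's r of log2 CPM. Nearest to Cbfa2t3 were Pde1c (0.973), Nxph1 (0.959), Creb3l1 (0.958), Nptx2 (0.957) and Gper1 (0.954). Nearest to Runx1t1 were Slc35d3 (0.979), Kcnip3 (0.979), Rab3c (0.977), Cemip (0.974) and Insrr (0.973), and among the 5 nearest to Cbfa2t2 were Acly (0.969), Gtf3c1 (0.965), Dok7 (0.939) and Plcg1 (0.929). The members were less like each other, with r of 0.831 between Cbfa2t3 and Runx1t1, 0.883 between Runx1t1 and Cbfa2t2 and 0.738 between Cbfa2t3 and Cbfa2t2. Neurog3 reached 0.880 with Cbfa2t3, 0.862 with Runx1t1 and 0.793 with Cbfa2t2. All these points share the 7 groups, so each r mostly reflects the group means.

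Read assignment could hardly mix the members with one another. With windows of 50 bases, no sequence was shared between the 3 members. Of the Cbfa2t2 windows, 7.20% were shared with other genes, mostly its pseudogene Cbfa2t2-ps1, whose mean was at most 1.89 CPM in any group. The antisense gene Gm10612 covers 295 bases of Cbfa2t3 exons (3.52%) and had 0 reads. Reads of the overlap cannot be assigned by strand in this unstranded method, so the 0 reads do not show how many fell there.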

How the data were processed

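Pools of 50 cells were sequenced by Smart-seq2, which uses no molecular identifiers and keeps no strand, so the detection limit covers counting error only. The authors deposited raw counts of reads per gene, which they had made with G-SNAP on mm10 and HTSeq with Ensembl genes, without normalization. Lines for reads assigned to no gene (14.4% of reads overlapping no gene, 8.06% ambiguous, 22.5% not aligned) stayed out of library sizes.

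A library was kept, by the study's limits, if spike-ins took less than 30% of its reads and it held more than 1000000 reads on genes and more than 10000 genes with a read, which 76 of 77 did. The study states that more than 1 library was left out; which ones is not given in the sources used here. Its pools were added up to 1 value per biological replicate (n = 3 per group). Genes seen in 5 or more libraries of a time point entered edgeR 4.0.16 in R 4.3.3 (TMM, robust quasi-likelihood test, Benjamini-Hochberg over all genes, threshold 0.05), with all groups of a time point in the same fit and a joint fit for changes over time. The study used scran and DESeq2, run here as alternatives (scran 1.30.0, DESeq2 1.42.0), beside no filter, no library limits, the first technical repeat alone, a replicate block, own no-color controls and leaving out each replicate. Passage 2 libraries alone, near-identical pools taken as 1 and folds of means without each replicate were added after seeing the data. Of these steps, only the edgeR fit within a time point was tested on simulated data. That test used counts of summed replicates and a comparison of Ngn3 cells with controls. P-values measure the spread between these replicates, whose separate origin is stated only as biological and technical repeats. Same-numbered replicates deviated from their group means together. Their r was 0.125 to 0.546 over 9 pairs at 2 days and 0.112 to 0.657 over 18 pairs at 8 days. For different numbers the medians were -0.12 and -0.25. The numbers were therefore taken to pair the samples in the number-matched ratios and in the replicate block. The main fits did not use this pairing.

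Members, partner lists and markers were chosen with earlier results of these data known. From each partner list the text names genes past the threshold with either Ngn3 form at 2 days, and the 5 genes nearest each member by r. A few genes that these rules gave are not reported here. Coordinates are from GENCODE M21 on GRCm38, the build of the files. Pairs of technical repeats 2 and 3 of replicates 2 and 3 at 2 days differed by a chi-square of 1.61 to 2.44 per gene, against at least 5.41 in all other pairs.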

Additional observations from a re-analysis of the deposited data

Results flagged for a closer look

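In the WT Ngn3 library of 8 days that was left out for its 849278 reads on genes, Cbfa2t3 stood at an unscaled CPM of 125 (106 reads), above all 12 no-color libraries (at most 6.26), above the 6 retained 6S-A libraries (at most 60.7) and above the other pool of the same replicate (31.96). Runx1t1 stood there at 12.95 CPM (11 reads), above all no-color libraries (at most 0.331) and within the range of the retained WT libraries (0 to 27.6). Cbfa2t2, at 71.8 CPM, was within the no-color range. The 2 pools of this replicate differed by a chi-square of 42.8 per gene. No other value of the members was singled out, and the cause of the Cbfa2t3 value was not tested.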

How the results depend on the processing

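Of the alternative values, 163 of 172 for Cbfa2t2 and 146 of 171 for Runx1t1 kept their direction and their side of the threshold. For Cbfa2t3, 167 of 172 moved by less than the spread between replicates over all 7 groups. That spread is wide, since it includes the no-color WT replicates (0.196, 1.42 and 8.68 CPM). By it, 6S-A against WT at 2 days did not move between 0.26 and 1.01, so this count does not measure how steady that difference is. The direction turned in 5 values of Cbfa2t2 and 9 of Runx1t1, all of differences with an adjusted p of 0.867 or more under those settings (edgeR). With the first repeat alone, 6S-A against WT turned to -0.69 for Runx1t1 at 2 days (from 0.44) and to -0.13 for Cbfa2t2 at 8 days, and the controls over time to -0.40 for Runx1t1. Leaving out each replicate, 6S-A against WT at 8 days ran from -0.40 (without 6S-A replicate 1; -0.03 without WT replicate 3) to 0.47 for Cbfa2t2 and from -0.72 (without 6S-A replicate 1) to 2.77 for Runx1t1. The no-color 6S-A against no-color WT difference ran from -0.33 (without no-color 6S-A replicate 1; -0.13 without no-color WT replicate 3) to 0.53 for Cbfa2t2 and from -0.66 (without no-color WT replicate 1; -0.59 without no-color 6S-A replicate 1) to 3.13 for Runx1t1. For Runx1t1, the controls over time ran from -0.98 (without no-color WT replicate 2) to 1.83, and the change of the 6S-A against WT difference from -1.18 (without 6S-A replicate 1 of 8 days; -0.23 and -0.13 without WT replicate 3 of 2 and of 8 days) to 2.48. Calls changed only at 8 days or over time. Without a filter on low counts, Cbfa2t2 with 6S-A against no-color cells (adjusted p = 0.0459, edgeR) and, over time, Cbfa2t2 with 6S-A (0.0416, edgeR) and Runx1t1 with WT and 6S-A (0.00319 and 0.0227, edgeR) passed. Runx1t1 with WT against no-color cells passed with scran factors (0.0487), DESeq2 (0.00313), no filter (3.09e-07), no library limits (0.0446) and without WT replicate 3 (0.0185), and Cbfa2t2 with 6S-A over time passed without 6S-A replicate 1 of 8 days (0.0499, edgeR). The replicate block, set within each time, changed no call of a member beyond those given above. For the change of the 6S-A against WT difference over time it gave 0 called genes, with -0.32 (SE 0.37) for Cbfa2t2 and 0.38 (SE 0.80) for Runx1t1 (adjusted p = 1 for both, edgeR). It was not fitted for 8 against 2 days within a form, since the block was set within each time.

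Counts of genes called moved by more than 1.5 times as follows, the cause not being tested. WT against GFP only: 2810, or 1216 with the first repeat and 4291 with the replicate block (1966 to 2410 leaving out a replicate). 6S-A against GFP only: 4305, or 1677 with the first repeat. 6S-A against WT at 2 days: 3, or 101 with DESeq2, 100 without a filter, 63 with the first repeat and 147 with the replicate block (0 to 5 leaving out a replicate). WT against no-color: 180, or 551 with DESeq2, 724 without a filter, 111 with the first repeat, 472 with the block and 49 with the own control (67 to 230). 6S-A against no-color: 337, or 822, 1044 without a filter, 704 with the block and 115 with the own control (192 to 307). 6S-A against WT at 8 days: 0, or 8 without a filter (0 to 2). No-color 6S-A against no-color WT: 0, or 38 with DESeq2 and 352 without a filter. WT over time: 33, or 19 with scran factors, 262 with DESeq2, 370 without a filter, 9 without library limits and 0 with the first repeat (0 to 33). 6S-A over time: 110, or 716, 630 and 5 with DESeq2, no filter and the first repeat (3 to 162). Controls over time: 265, or 1136, 856 and 10 (7 to 745). Change of the difference: 0, or 4 with DESeq2 and 26 without a filter.

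At 8 days the depth limits what can be seen: a read count of 3 is worth 0.182 to 1.74 CPM in the 12 replicates of 8 days, the highest in no-color WT replicate 3, and 0.109 to 0.157 CPM in the 9 of 2 days.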
